A study of Mus musculus with 18 samples.

Results

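Calorie restriction on a low-fat diet was examined in mouse liver by comparing the 3 small RNA libraries of the group LF+CR with the 3 libraries of the group LF, 6 of the 18 libraries of the series. Levels are in RPM, reads scaled to the total of the library, and are thus shares of its reads. A miRNA was compared where it reached at least 5 RPM in at least 3 of the 18 libraries, which held for 351 of the 758 mature miRNAs listed; the other 407 were not tested. All animals were wild-type C57BL/6J, an inbred laboratory strain; the regimens began at 5 weeks of age and livers were taken at 62 weeks. LF and LF+CR therefore share strain, genotype, diet, tissue and age, and differ in CR. The groups HF, HF+CR and LF+Ex, each also of 3 libraries, served for 2 further tests. The labels do not spell out the abbreviations, which are read here as low-fat diet, high-fat diet, calorie restriction and exercise, and they do not give how far intake was restricted. Whether replicate libraries stem from different animals is not stated, and the p-values therefore describe only how far these libraries vary, which may be technical variation.

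miRNAs are short RNAs cut from hairpin precursors; either arm of the hairpin, named 5p or 3p, can be loaded into an Argonaute protein. The loaded strand pairs with messenger RNAs mainly through its seed, bases 2 to 8, and lowers their translation or stability, so miRNAs with the same seed share much of their target range. In liver, miRNAs are known as regulators of sterol and lipid handling (miR-33, miR-122), of insulin signalling (let-7, miR-103 and miR-107), of matrix genes (miR-29) and of the p53 response (miR-34a).

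The sequences below are the mature miRNAs on which the results turn, from RefSeq for GRCm38.p6, written 5′ to 3′ with the seed in capitals. The first set holds both miRNAs that rose and the seed relatives of miR-29a-3p, so that the shared seed can be seen.
miR-33-5p: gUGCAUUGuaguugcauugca
miR-29a-3p: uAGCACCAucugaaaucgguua
miR-29b-3p: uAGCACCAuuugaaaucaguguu
miR-29c-3p: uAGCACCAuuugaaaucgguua
The next set shows let-7a-5p, which was not called, beside the 4 members of its seed family that fell and 1 further member, let-7f-5p.
let-7a-5p: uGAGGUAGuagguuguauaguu
let-7f-5p: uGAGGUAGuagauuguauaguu
let-7b-5p: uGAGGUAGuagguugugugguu
let-7c-5p: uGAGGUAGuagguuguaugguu
let-7d-5p: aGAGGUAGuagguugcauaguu
miR-98-5p: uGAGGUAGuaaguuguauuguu
The last set holds other miRNAs that fell, with the near-identical relative of miR-27b-3p and of miR-148b-3p placed next to each.
miR-34a-5p: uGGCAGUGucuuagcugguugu
miR-574-5p: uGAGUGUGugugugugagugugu
miR-671-5p: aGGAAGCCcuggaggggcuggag
miR-27b-3p: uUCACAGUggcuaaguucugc
miR-27a-3p: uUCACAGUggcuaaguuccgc
miR-148b-3p: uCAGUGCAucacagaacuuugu
miR-148a-3p: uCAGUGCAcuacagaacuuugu
Positions are counted from 1 at the 5′ end, with the first-named base belonging to the first-named miRNA. Against let-7a-5p, let-7f-5p differs by G12A, let-7c-5p by A19G, let-7b-5p by A17G and A19G, let-7d-5p by U1A and U16C, and miR-98-5p by G11A and A19U. miR-29c-3p differs from miR-29a-3p by C10U, miR-27b-3p from miR-27a-3p by C19U, and miR-148b-3p from miR-148a-3p by C9U and U10C. How reads that match several miRNAs were assigned is not given in the sources used here, so values of these near-identical miRNAs could be split between them.

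The 6 libraries held 5.12 to 8.88 megareads (M) on listed miRNAs, as read from the RPM steps. The hepatocyte miRNA miR-122-5p was the most abundant miRNA, at 206787 to 292388 RPM in a liver sample as labelled. Libraries of 1 group were not copies of each other: the median absolute log2 difference between them was 0.300 to 0.468, and no pair held identical values. LF 1 stood apart within LF. It was the highest of the 3 LF libraries for 213 of the 351 miRNAs, its leukocyte and Kupffer cell miRNAs summed to 9014 RPM against 2934 and 4493 RPM, and its epithelial and bile duct miRNAs to 6705 RPM against 1191 and 2257 RPM. LF+CR 1 held 348 RPM of pancreatic miRNAs against 4.25 to 41.2 RPM in the other 5 libraries.

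In LF+CR 22 miRNAs passed the test, 6.27% of those tested. Higher levels were called for 2 of them (0.57%), miR-33-5p and miR-29a-3p, and lower levels for 20 (5.7%), led in size by miR-34a-5p, miR-669a-3p with its identical copy miR-669o-3p, miR-1948-3p and miR-574-5p. The test was limma on log2(RPM + 1) with all 18 libraries in 1 fit and Benjamini-Hochberg adjustment over the 351 miRNAs; a call is an adjusted p under 0.05, and all log2 fold changes are on that scale, LF+CR minus LF. Adding 1 RPM makes the changes of scarce miRNAs look smaller than they are. Before adjustment 101 miRNAs had a p under 0.05, of which 90 were lower and 11 higher. All 3 LF+CR libraries lay outside the LF range for 101 miRNAs (28.8%), below it for 87 (24.8%) and above it for 14 (3.99%).

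The falls stood on a general shift. The median log2 fold change over all 351 miRNAs was -0.32 and 264 of them (75.2%) lay below 0. The size of this shift depended on LF 1 and LF 2. Without LF 1 the median was -0.18 (66.1% below 0), and without LF 2 it was -0.43 (82.3% below 0). With any other of the 6 libraries left out it was -0.27 to -0.34. When RPM was rescaled by median-of-ratios size factors the median moved to 0.017, the number of calls to 17, and the balance to 10 higher and 7 lower, with 9 of the 22 calls kept. A fall of the size of miR-27b-3p or let-7c-5p is thus a fall within the library's reads, and changes are best read against that median. RPM is a share, and in a bulk sample fewer cells of a type and less RNA per cell cannot be told apart.

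**Figure D1:**
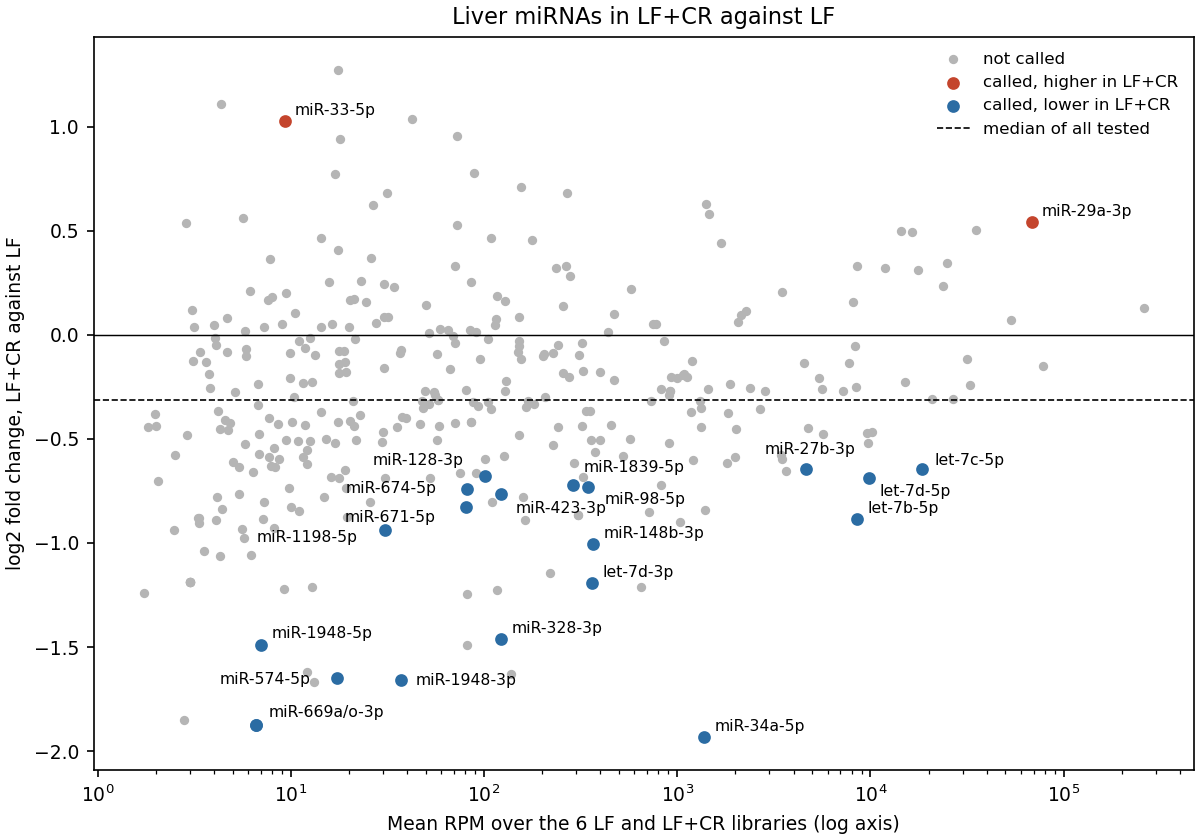
Log2 fold change of each of the 351 tested miRNAs, LF+CR against LF, against its mean RPM over the 6 libraries (log axis), with called miRNAs coloured and named and the median of all tested as a dashed line. The 20 called falls lie at all levels from a few RPM (miR-1948-5p, miR-669a/o-3p) to over 10000 RPM (let-7c-5p), and both called rises sit far apart in level.

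The called set depended on single libraries. Leaving out LF 1 left 9 calls, LF 3 left 11, LF+CR 1 left 5 and LF+CR 2 left 5, while leaving out LF 2 gave 30 and LF+CR 3 gave 40. The calls of miR-1948-3p, miR-574-5p and miR-671-5p were kept in each of the 6 omissions. With the 6 libraries alone in the fit limma called 0 miRNAs, 92 had an unadjusted p under 0.05, and the smallest adjusted p was 0.0734; voom weights in the fit of 18 libraries called 30.

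miR-33-5p lies in an intron of Srebf2, the gene of a master transcription factor of sterol synthesis, and represses the cholesterol exporter Abca1. It stood at 6.35, 5.14 and 5.57 RPM in LF and at 16.99, 10.1 and 11.6 RPM in LF+CR. Each LF+CR library was above each LF library (log2 fold change 1.03, SE 0.26, adjusted p = 0.0289). These are low levels, with 37 reads in the lowest of the 6 libraries, and it was not called without LF 1, LF 2, LF 3, LF+CR 1 or LF+CR 2 (adjusted p 0.0548 to 0.189). The other arm of the hairpin, miR-33-3p, was at 4.92, 1.95 and 5.02 RPM in LF and at 2.64, 3.78 and 3.61 RPM in LF+CR and did not pass (-0.13, SE 0.32, adjusted p = 0.824). miR-33-5p was at 11.8, 12.7 and 12.99 RPM in LF+Ex, and LF+CR minus LF+Ex was 0.010 (SE 0.26).

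miR-29 miRNAs are known repressors of collagen and other matrix genes. miR-29a-3p, the third most abundant miRNA over the 6 libraries, was at 59998, 52695 and 53793 RPM in LF and at 83538, 89703 and 70139 RPM in LF+CR. All LF+CR libraries were above all LF libraries (log2 fold change 0.54, SE 0.13, adjusted p = 0.018); it was no longer called without LF 3, LF+CR 1 or LF+CR 2 (adjusted p 0.0688 to 0.104). Its seed relatives were also above the LF range in 3 of 3 libraries without passing: miR-29c-3p was at 29764, 29589 and 27865 RPM in LF and at 43175, 44799 and 36012 RPM in LF+CR (0.50, SE 0.15, adjusted p = 0.0521). miR-29b-3p was at 15416, 11775 and 13583 RPM in LF and at 22421, 17167 and 17829 RPM in LF+CR (0.49, SE 0.17, adjusted p = 0.0969). The summed RPM of the 3 miRNAs with the seed AGCACCA rose from 105178, 94058 and 95241 RPM to 149134, 151670.0 and 123979 RPM (log2 fold change 0.52, SE 0.11, adjusted p = 0.0125 over 233 seeds). The sum was not called without LF 3, LF+CR 1 or LF+CR 2 (adjusted p 0.0509 to 0.101). After rescaling, miR-29a-3p, miR-29b-3p and miR-29c-3p each passed, at 0.88, 0.83 and 0.84 (adjusted p = 0.00529, 0.028 and 0.0459).

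The fall with the largest size was that of miR-34a-5p, a p53 target that represses Sirt1 and cell cycle genes and is known to increase with age in several tissues. It was at 3493, 1293 and 1831 RPM in LF and at 387, 469.9 and 814 RPM in LF+CR. Both groups were spread, LF by more, and they did not overlap (log2 fold change -1.93, SE 0.50, adjusted p = 0.0298). It failed the threshold without LF 1, LF 3, LF+CR 1 or LF+CR 2 (adjusted p 0.0847 to 0.186) and passed after rescaling (-1.60, adjusted p = 0.0383). Its other arm, miR-34a-3p, was at -1.06 (adjusted p = 0.144), at 1.51 to 10.9 RPM.

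miR-574-5p, from an intron of Fam114a1, has a long run of GU repeats, as the printed sequence shows. It was at 23.3, 22.0 and 33.8 RPM in LF and at 4.91, 6.46 and 13.3 RPM in LF+CR (log2 fold change -1.65, SE 0.31, adjusted p = 0.00886). The LF+CR libraries lay below all LF libraries, and the fall held in the 6 omissions and after rescaling (-1.35, adjusted p = 0.0138). The other arm, miR-574-3p, which is the more abundant, was at 127, 90.9 and 128 RPM in LF and at 40.03, 42.1 and 63.2 RPM in LF+CR. It too lay below the LF range in 3 of 3 libraries, with an adjusted p just above the threshold (-1.25, SE 0.37, adjusted p = 0.0521).

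miR-671-5p, which overlaps an exon of Chpf2, had libraries at 97.2, 104 and 108 RPM in LF and at 53.5, 57.0 and 62.6 RPM in LF+CR (log2 fold change -0.83, SE 0.15, adjusted p = 0.00886). The gap between the groups was larger than the range within either one, and the call was kept in the 6 omissions. It was lost after rescaling (-0.50, adjusted p = 0.162).

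Both arms of miR-1948 fell. miR-1948-3p was at 44.2, 79.8 and 48.7 RPM in LF and at 13.1, 19.4 and 19.0 RPM in LF+CR (log2 fold change -1.66, SE 0.25, adjusted p = 0.00225), and miR-1948-5p at 9.07, 15.8 and 7.64 RPM in LF and at 2.39, 2.52 and 4.55 RPM in LF+CR (-1.49, SE 0.33, adjusted p = 0.0172). The LF+CR libraries were below the LF range for each arm, and the ratio of the arms did not change by the test (0.17, SE 0.25, adjusted p = 0.711). The call of the 5p arm, with 16 reads in the lowest library, was lost without LF+CR 1 or LF+CR 2 (adjusted p 0.0658 to 0.104) and after rescaling (adjusted p = 0.0797); that of the 3p arm was kept in both.

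miR-669a-3p and miR-669o-3p had the same value in every library and are 1 measurement. They were at 17.1, 7.23 and 8.95 RPM in LF and at 3.02, 1.58 and 1.898 RPM in LF+CR (log2 fold change -1.88, SE 0.41, adjusted p = 0.0164). LF 1 was the highest library, and both entries missed the threshold without LF 1 or LF+CR 2 (adjusted p 0.0615 to 0.0698). miR-328-3p was at 188, 152 and 196 RPM in LF and at 41.5, 73.4 and 85.2 RPM in LF+CR (-1.46, SE 0.31, adjusted p = 0.0164). Its LF+CR values were all below the lowest LF value, and 1 omission ended the call, that of LF+CR 1 (adjusted p 0.0936).

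miR-148b-3p, from an intron of Copz1, was at 535, 413 and 502 RPM in LF and at 194, 197 and 354 RPM in LF+CR (log2 fold change -1.01, SE 0.26, adjusted p = 0.0289). LF+CR 3 was the nearest of its group to LF. Its seed relatives were not called: miR-148a-3p, a hepatocyte miRNA that represses the LDL receptor, was at 0.31 (adjusted p = 0.36) with LF+CR 3 at 28788 RPM and the other 5 libraries at 12748 to 18107 RPM, and miR-152-3p was at 0.061 (adjusted p = 0.879). The sum over the seed CAGUGCA was at 0.26 (SE 0.19, adjusted p = 0.382). miR-148b-3p is a minor member of this family by level. The call of miR-148b-3p ended without LF 1, LF 3, LF+CR 1 or LF+CR 2 (adjusted p 0.0974 to 0.186) and after rescaling (adjusted p = 0.0618).

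The remaining called falls outside the let-7 and miR-27 families were smaller. miR-1198-5p, from an intron of Gripap1, was at 46.4, 35.3 and 41.1 RPM in LF and at 18.6, 22.1 and 21.8 RPM in LF+CR (log2 fold change -0.94, SE 0.22, adjusted p = 0.0202). miR-423-3p, from an intron of Nsrp1, was at 157, 138 and 168 RPM in LF and at 73.1, 95.6 and 104 RPM in LF+CR (-0.77, SE 0.20, adjusted p = 0.0329); its other arm miR-423-5p was at -0.89 (adjusted p = 0.0551) with 3 of 3 LF+CR libraries below the LF range. miR-674-5p was at 118, 80.9 and 106 RPM in LF and at 44.1, 68.1 and 71.0 RPM in LF+CR (-0.74, SE 0.21, adjusted p = 0.0451). In each of these the groups did not overlap. miR-1839-5p was at 406, 284 and 391 RPM in LF and at 191, 252 and 209 RPM in LF+CR (-0.72, SE 0.19, adjusted p = 0.031); its hairpin overlaps a small Cajal body RNA gene in the annotation, and reads of both RNAs cannot be told apart. miR-128-3p, best known from brain and copied in introns of R3hdm1 and Arpp21, was at 125, 111 and 135 RPM in LF and at 57.5, 88.4 and 88.6 RPM in LF+CR (-0.68, SE 0.17, adjusted p = 0.0289). LF 1, LF 3, LF+CR 1 and LF+CR 2 were each needed for all 5 of these calls, with adjusted p up to 0.209 without one of them; LF+CR 3 was needed for miR-1839-5p as well. After rescaling, miR-1198-5p was called (-0.62, adjusted p = 0.0383) and the other 4 were not.

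**Figure D2:**
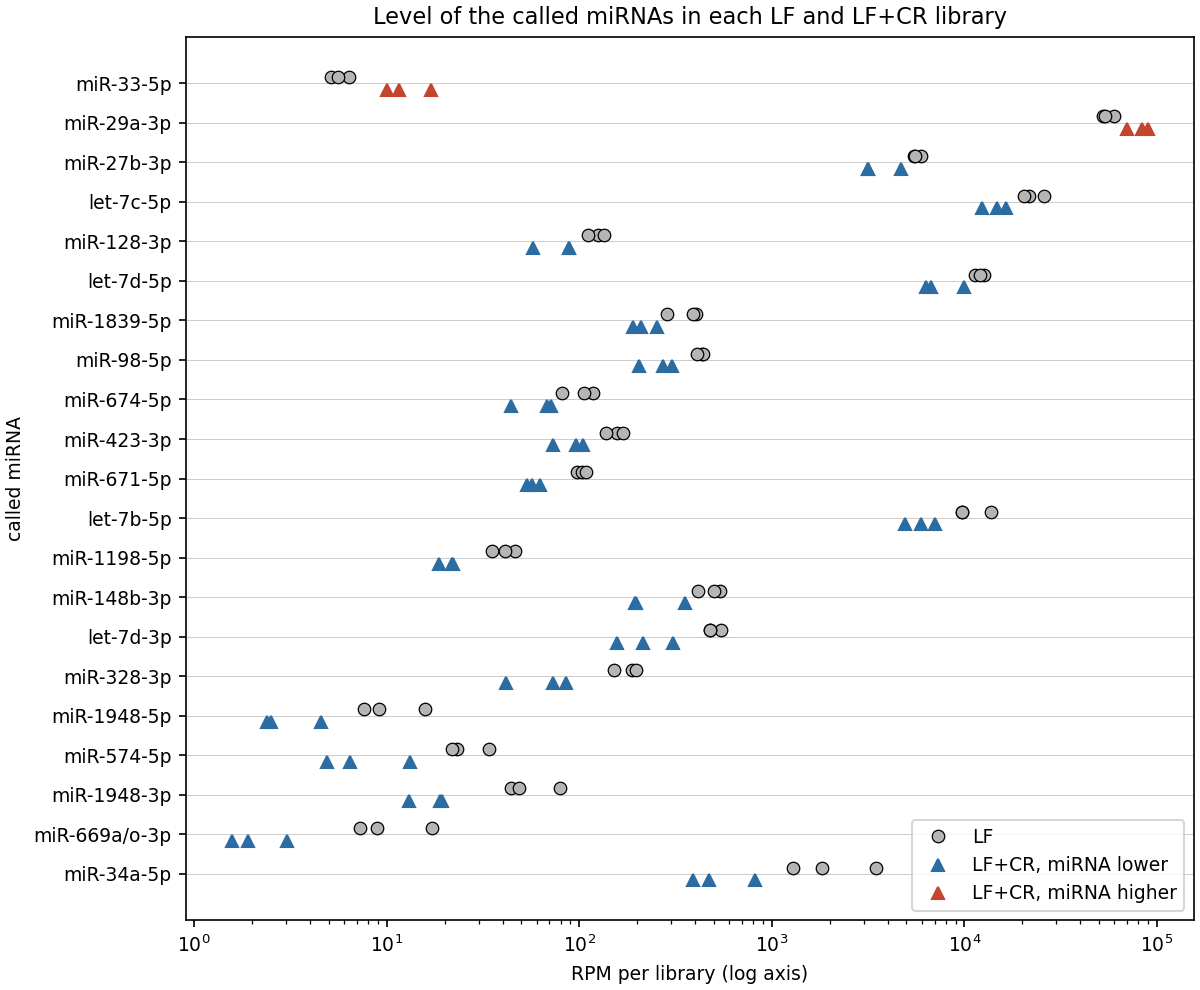
RPM (log axis) of the called miRNAs in each LF library (grey circles) and each LF+CR library (triangles, blue where lower and red where higher), with the identical miR-669a-3p and miR-669o-3p drawn once. In every row the 3 LF+CR libraries lie on 1 side of the 3 LF libraries; the gap is wide beside the spread for miR-671-5p and narrow for miR-34a-5p and miR-674-5p.

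let-7 miRNAs, abundant repressors of growth and insulin-pathway genes that rise as tissues mature, fell in part. Of the 9 tested miRNAs with the seed GAGGUAG 4 were called (all miRNAs: 6.27%), and all 9 lay below 0 (all miRNAs: 75.2%), 5 of them also after rescaling. let-7b-5p was at 9747, 9681 and 13703 RPM in LF and at 4884, 7036 and 5976 RPM in LF+CR (log2 fold change -0.88, SE 0.21, adjusted p = 0.0202). let-7c-5p was at 21748, 20442 and 25789 RPM in LF and at 12376, 16356 and 14749.8 RPM in LF+CR (-0.65, SE 0.17, adjusted p = 0.0314). let-7d-5p was at 12648, 11406 and 12068 RPM in LF and at 6692, 6283 and 9943 RPM in LF+CR (-0.69, SE 0.15, adjusted p = 0.0164). Each LF+CR library was below each LF library for these 3, as it was for miR-98-5p, at 435, 438 and 411 RPM in LF and at 273, 204 and 304 RPM in LF+CR (-0.73, SE 0.17, adjusted p = 0.0173). The 3 most abundant members had smaller differences that did not pass: let-7f-5p was at -0.24 (adjusted p = 0.212), let-7a-5p at -0.31 (0.15) and let-7g-5p at -0.31 (0.125). let-7i-5p and let-7e-5p were at -0.36 and -0.19 (adjusted p = 0.302 and 0.741). The sum over the seed fell from 136702, 134524 and 143646 RPM to 102406, 105528 and 105026 RPM (log2 fold change -0.41, SE 0.10, adjusted p = 0.0335). All 4 single calls and that of the sum were lost after rescaling, where the sum was at -0.072 (adjusted p = 0.781) and let-7f-5p, let-7a-5p, let-7g-5p and let-7e-5p turned above 0.

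Single libraries also carried these calls. let-7b-5p lost its call without LF 3 or LF+CR 1 (adjusted p 0.113 to 0.156), let-7c-5p without LF 1, LF 3, LF+CR 1 or LF+CR 2 (adjusted p 0.0607 to 0.209), let-7d-5p without LF 1, LF+CR 1 or LF+CR 2 (adjusted p 0.0579 to 0.102) and miR-98-5p without LF 1, LF+CR 1 or LF+CR 2 (adjusted p 0.0609 to 0.0796). The sum lost it without LF 1, LF 3, LF+CR 1 or LF+CR 2 (adjusted p 0.0741 to 0.163). let-7d-3p, the other arm of the let-7d hairpin with a seed of its own, was at 543, 475 and 476 RPM in LF and at 156, 214 and 306 RPM in LF+CR (log2 fold change -1.19, SE 0.32, adjusted p = 0.0357). It lay below the LF range in 3 of 3 libraries, and it was not called without LF 1, LF 2, LF 3, LF+CR 1 or LF+CR 2 (adjusted p 0.0561 to 0.209) and after rescaling (adjusted p = 0.164).

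miR-27b-3p, a repressor of lipid genes such as Pparg, was at 5444, 5914 and 5522 RPM in LF and at 3174, 3147 and 4671 RPM in LF+CR (log2 fold change -0.64, SE 0.14, adjusted p = 0.0172). The LF libraries were close together and LF+CR 3 was the nearest to them. miR-27a-3p, at 186 to 501 RPM, was at -0.62 and did not pass (adjusted p = 0.26). The sum over the seed UCACAGU fell from 5945, 6179 and 5829.8 RPM to 3381, 3333 and 4964 RPM (-0.65, SE 0.14, adjusted p = 0.0222). miR-27b-3p lost its call without LF+CR 1 or LF+CR 2 (adjusted p 0.0725 to 0.106) and after rescaling (-0.31, adjusted p = 0.334); the sum lost it without LF 1, LF 3, LF+CR 1 or LF+CR 2 (adjusted p 0.0617 to 0.163).

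Over all seeds, 13 of 233 summed levels were called (5.58%), 2 higher (0.858%) and 11 lower (4.72%). After rescaling 9 were called, 6 higher and 3 lower, and the median moved from -0.32 to 0.0070. The sums hold only miRNAs with a matched sequence, so a family may have further members. Among the 33 seeds with at least 2 tested members the called ones were those of miR-29, miR-27 and let-7; the other 10 calls were seeds with 1 tested member, whose sums repeat or nearly repeat that miRNA. Seeds with several members and no call included that of miR-103-3p and miR-107-3p, regulators of insulin sensitivity that lie within introns of Pank1, Pank2 and Pank3, at -0.46 (adjusted p = 0.0872, LF+CR below LF in 3 of 3 libraries). The 5 tested miRNAs of the miR-17 and miR-93 seed were at -0.45 (adjusted p = 0.0944), and miR-30a-5p, miR-30c-5p and miR-30e-5p together at 0.29 (adjusted p = 0.113, LF+CR above LF in 3 of 3). Leaving out LF 3, LF+CR 1 or LF+CR 2 left limma with 0 calls among the 233 seeds, although 56, 47 and 52 had an unadjusted p under 0.05, and leaving out LF+CR 3 gave 28 calls.

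**Figure D3:**
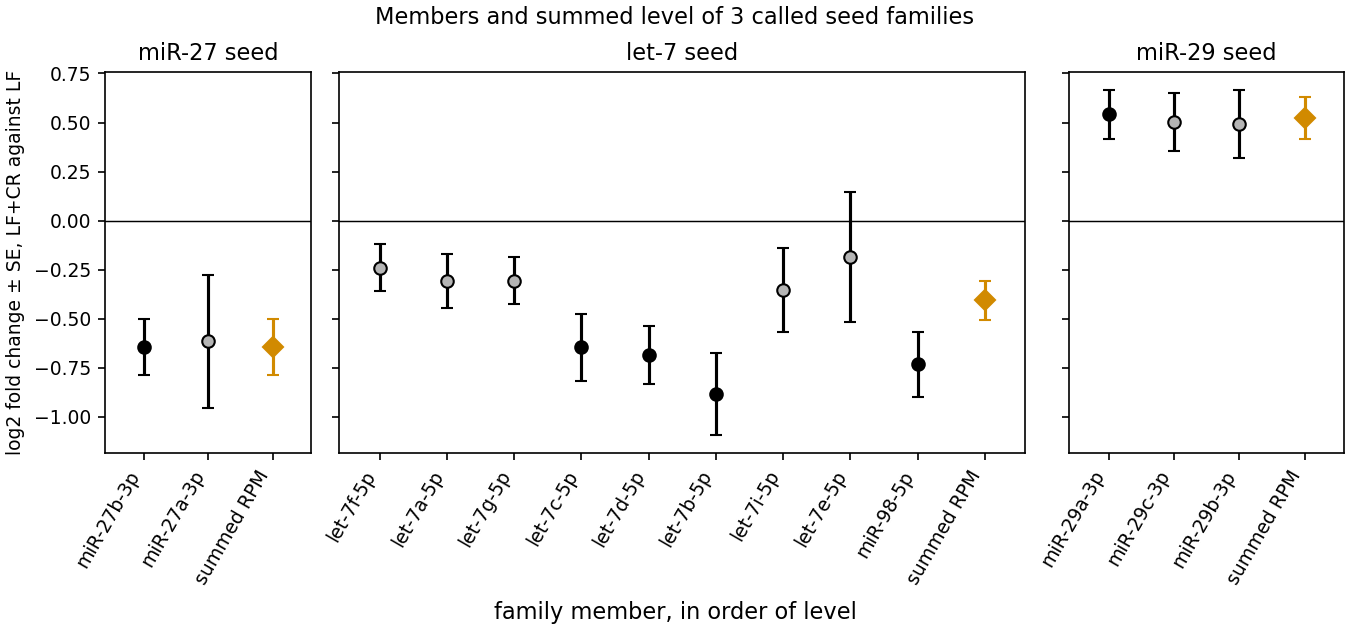
Log2 fold change ± SE, LF+CR against LF, of the tested members of the miR-27, let-7 and miR-29 seeds, in order of level, with the summed RPM of the seed as an orange diamond; black points passed the test and grey points did not. The 3 most abundant let-7 members lie nearer to 0 than the 4 that passed, and the 3 miR-29 members lie at 0.49 to 0.54.

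In the genome (GRCm38), miR-34a-5p lies at chr4:150068473-150068494 (plus strand), outside an annotated host gene on its strand, and miR-33-5p at chr15:82198127-82198147 (plus strand) in the Srebf2 intron. miR-671-5p is at chr5:24592132-24592154 (plus strand) and miR-574-5p at chr5:64970328-64970350 (plus strand). Hairpins within 10 kb of each other on 1 strand, which are often cut from 1 transcript, allowed a comparison of neighbours. In the cluster of let-7d, let-7f-1 and let-7a-1 (chr13:48536012-48538272, in exons of the lincRNA 6720427I07Rik), all 5 tested mature miRNAs lay below 0, let-7f-5p and let-7a-5p not after rescaling, and both arms of let-7d passed. let-7c-2 and let-7b share the transcript Lncppara (chr15:85706603-85707403); let-7c-5p and let-7b-5p passed there, and let-7c-2-3p was at -0.42 without passing. let-7c-5p can also come from let-7c-1 beside miR-99a on chromosome 16, where miR-99a-5p was at -0.21 and did not pass.

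Other clusters with a called member also held uncalled ones. At miR-27b and miR-24-1 on chromosome 13, miR-27b-5p was at -0.55 and miR-24-3p at -0.27 beside the called miR-27b-3p. At let-7f-2 and miR-98 within a Huwe1 intron on the X chromosome, let-7f-2-3p was at -0.13 beside the called miR-98-5p. At miR-29a and miR-29b-1 (chr6:31062660-31063093, minus strand) the 3p arms were at 0.54 and 0.49, miR-29a-5p at 0.32 and miR-29b-1-5p at -0.29, with miR-29a-3p alone called. After rescaling, miR-24-3p, miR-99a-5p, let-7f-2-3p and miR-29b-1-5p lay above 0. Cluster members differ in copy number and in the reads they share with relatives, and no difference between neighbours was tested.

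Arm usage was compared as the ratio of the 5p to the 3p level, log2((5p RPM + 1)/(3p RPM + 1)), which a rescaling of the library scarcely moves. Of 100 hairpin names with both arms tested 1 was called (1%). This was miR-144, an erythroid miRNA transcribed with miR-451a. Its ratio was -3.96, -3.83 and -4.08 in LF and -5.03, -5.29 and -4.85 in LF+CR, a change of -1.10 (SE 0.27, adjusted p = 0.0486). Neither arm was called alone: miR-144-5p was at -0.66 and miR-144-3p at 0.44. The groups were well apart, with the 3p arm making up more of the pair in each LF+CR library. The call ended without LF 1, LF 2, LF 3, LF+CR 1 or LF+CR 2 (adjusted p 0.108 to 0.16), with no filter on low values and without the intensity trend, where limma called 0 ratios and 39 and 18 had an unadjusted p under 0.05.

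The next ratios by p did not pass and lay on both sides of 0. That of miR-34a was at -0.87 (adjusted p = 0.0585), since its 3p arm lay less far below LF than its 5p arm. That of miR-29c was at -0.82 (0.0641), with the 3p arm at 0.50 and the 5p arm at -0.32. The ratio of miR-33 was at 1.16, that of miR-185 at 0.87, that of miR-455 at 1.01 and that of miR-497 at -1.83 (adjusted p = 0.0748 for each). The 3 LF+CR libraries lay outside the LF range for 26 of the 100 ratios (26%). Without rescaling, both arms lay below 0 in 63 pairs, both above in 13 and on opposite sides in 24; of the 12 pairs with a called arm, both arms were called in 2, let-7d and miR-1948.

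**Figure D4:**
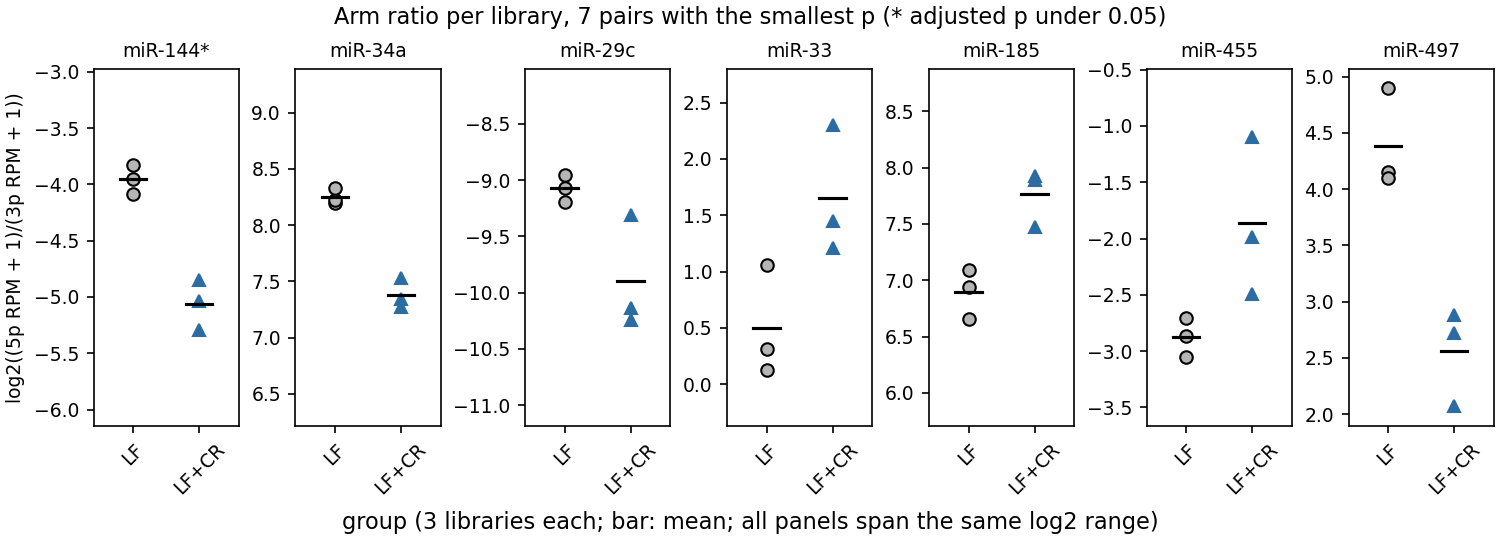
Log2 ratio of the 5p to the 3p arm in each LF (circles) and LF+CR (triangles) library for the 7 pairs with the smallest p; bars are group means and each panel spans the same range of log2 units. LF and LF+CR do not overlap in any of the 7, and only miR-144 passed the test.

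By amount rather than by ratio, the gain was concentrated in a few abundant miRNAs and the loss was spread over more. Group means were higher in 79 miRNAs, by 95528 RPM in all, and lower in 272, whose differences summed to -93819 RPM. miR-29a-3p gained 25632 RPM, miR-122-5p 21619 RPM and miR-29c-3p 12256 RPM, together 62.3% of the gain. The largest losses were those of miR-21a-5p (-9499 RPM), let-7c-5p (-8166 RPM) and let-7a-5p (-5712 RPM), together 24.9% of the loss. The difference of miR-122-5p rested on single libraries: it was 454 RPM without LF 1, 10793 RPM without LF+CR 3 and 37703 RPM without LF 3. That of miR-21a-5p was 658 RPM without LF 1, -3795 RPM without LF+CR 3, -17148 RPM without LF+CR 1 and -22029 RPM without LF 3. The share of the gain held by miR-29a-3p, miR-122-5p and miR-29c-3p was 53.1% to 69.5% over the 6 omissions. Of the 6 miRNAs with these gains and losses, miR-29a-3p and let-7c-5p passed the test. miR-122-5p was at 206787, 259278 and 281284 RPM in LF and at 253482, 266336 and 292388 RPM in LF+CR and miR-21a-5p, induced in liver injury and fibrosis, at 103411, 87843 and 58037 RPM in LF and at 88896, 69708 and 62190.1 RPM in LF+CR; the groups overlapped in both, and the difference of miR-21a-5p turned to 0.18 after rescaling. The 20 miRNAs with a mean of at least 10000 RPM had a median log2 fold change of -0.023 with 10 below 0, whereas the 331 others had medians of -0.27 to -0.46 by abundance class. The 5p and 3p arms had like medians, -0.32 over 162 and -0.33 over 174 miRNAs.

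The lists by function are described beside the 6.27% called over all miRNAs and the overall median of -0.32, with no test of any list. Of 19 tested miRNAs known for lipid and sterol regulation miR-33-5p rose and miR-27b-3p, miR-34a-5p and miR-128-3p fell (4 of 19, 21.1%, median -0.15). Of 21 linked to insulin and glucose miR-29a-3p rose and miR-98-5p, let-7d-5p, let-7c-5p and let-7b-5p fell (5 of 21, 23.8%, median -0.24); these 4 share a seed and are not separate evidence. Of 14 ageing and senescence miRNAs and of 16 fibrosis miRNAs the same pair was called, miR-29a-3p higher and miR-34a-5p lower (medians -0.27 and -0.24). The fibrosis list, which holds the miR-29 family and miR-122-5p, summed to 462755 to 479133 RPM over the LF libraries, and to 515438 to 533067 RPM over those of LF+CR. miR-122-5p made up 249116 of the mean of 470534 RPM in LF. Its difference of 21619 RPM was 454 RPM without LF 1, but the gap between the sums remained without that library. LF 2 and LF 3 stood at 479133 and 469714 RPM, below each LF+CR library. The miR-29 family differed by 25632 RPM (miR-29a-3p), 12256 RPM (miR-29c-3p) and 5548 RPM (miR-29b-3p). By log2 fold change 10 of the 16 miRNAs lay below 0, so the gap is not a trait of the whole list. None of 11 hepatocyte-enriched miRNAs was called; 3 lay below 0 (2 after rescaling) and the median was 0.21. Their summed level was 318031 RPM in LF 1, 403389 and 410904 RPM in the other LF libraries, and 387725 to 434612 RPM in LF+CR. Rescaling turned the medians of the lipid, insulin, ageing and fibrosis lists above 0.

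Markers of other cell types moved in part with the groups. None of 10 leukocyte and Kupffer cell miRNAs was called, 9 of 10 lay below 0, 8 after rescaling (median -0.58), and their sum was 9014, 2934 and 4493 RPM in LF and 3223, 2867 and 3608 RPM in LF+CR. LF 1 was the highest library, and the ranges overlapped. None of 5 erythroid miRNAs was called, with sums of 8302, 3656 and 6915 RPM in LF and 5204, 4186 and 5250.1 RPM in LF+CR. None of 4 endothelial, 9 stellate and mural, 9 epithelial and bile duct, 2 pancreatic or 2 muscle miRNAs was called either, and the LF and LF+CR ranges overlapped for the sums of these lists. Of 8 neuronal miRNAs miR-128-3p alone was called and 7 lay below 0, before and after rescaling. Before rescaling their sum was lower in each LF+CR library, at 364, 409 and 391 RPM, than in LF, at 543, 745 and 575 RPM. Most of that sum was miR-137-3p, with means of 405 RPM in LF and 249 RPM in LF+CR. Size factors were 0.89 to 1.21 in LF and 0.81 to 0.88 in LF+CR. When the sums are divided by them, the LF and LF+CR ranges overlap, so the order of the sums does not hold after rescaling. The 3 tested fragment-like entries, often derived from other RNAs, summed to 31.2, 22.5 and 28.8 RPM in LF and 39.7, 36.2 and 41.8 RPM in LF+CR. No tested list member was at 0 in the 6 libraries; the untested miR-194-1-3p and miR-758-3p were. The part of other cell types in the called falls was not tested. Without LF 1, the library richest in leukocyte and epithelial miRNAs, 13 of the 20 falls were no longer called and 7 were. Omitting LF+CR 1 or LF+CR 2 left 5 called falls each, so a loss of calls was not particular to LF 1. The median over all 351 miRNAs came nearest to 0 without LF 1, at -0.18. It was -0.31 without LF+CR 1 and -0.27 without LF+CR 2.

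Whether the change with CR depends on the diet was tested as the difference of the differences, (LF+CR minus LF) minus (HF+CR minus HF). Of 351 miRNAs 3 passed (0.855%), all of them miRNAs that fell with CR on the LF diet: miR-1948-3p, miR-1948-5p and miR-671-5p. On the HF diet itself, HF+CR minus HF gave 0 calls in limma (0%), and 53 miRNAs had an unadjusted p under 0.05. HF+CR had the largest spread of the 6 groups, a median SD of log2 levels of 0.418 against 0.271 in LF+CR. Its mean depth was the lowest, 3.95 M against 6.33 M in LF+CR. The lack of calls does not show that CR had no effect on HF. miR-1948-3p was at 33.8, 34.99 and 45.1 RPM in HF and at 58.2, 86.7 and 89.7 RPM in HF+CR, from lowest to highest. It was thus higher in each HF+CR library than in each HF library, the opposite of the LF diet, although that difference alone did not pass (1.01, SE 0.25, adjusted p = 0.127). The difference between diets was -2.67 (SE 0.35, adjusted p = 0.000482) and was kept in each of 12 omissions of 1 library and after rescaling.

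miR-1948-5p was at 7.38, 7.71 and 12.6 RPM in HF and at 12.7, 19.0 and 31.4 RPM in HF+CR. HF+CR was again the higher group on this diet, and the difference between diets was -2.54 (SE 0.47, adjusted p = 0.0124); it was lost without HF 3 (adjusted p 0.0506), after rescaling and with only the compared groups in the fit. miR-671-5p was at 118, 129.9 and 146 RPM in HF and at 133, 136 and 182 RPM in HF+CR. These ranges overlap, and the difference between diets was -1.02 (SE 0.22, adjusted p = 0.0306). It was not called without LF 2, LF 3, LF+CR 1, LF+CR 2, HF 1, HF 3 or HF+CR 1 (adjusted p 0.0734 to 0.109) and after rescaling (0.218), nor with only the compared groups in the fit.

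For the other 19 called miRNAs no difference between diets passed, which does not show that CR acts alike on both diets. Of the 20 falls on LF 15 lay below 0 on HF, with a median of -0.17 against -0.91 on LF; over all 351 miRNAs 199 (56.7%) lay below 0 on HF, with a median of -0.05. Each of the 20 was smaller in size on HF than on LF, a description of miRNAs that were chosen by their LF values. The 5 above 0 on HF were miR-1948-3p, miR-1948-5p, let-7d-3p, miR-1198-5p and miR-671-5p. miR-148b-3p was the nearest to equal on both diets, at -1.01 on LF and -0.84 on HF (adjusted p = 0.14). miR-34a-5p was at -1.07 on HF, with HF+CR libraries between 596 and 2939.7 RPM. miR-33-5p was at 13.2, 21.2 and 24.2 RPM in HF and 15.7, 19.1 and 23.8 RPM in HF+CR, above its LF level in both, and the change with CR on HF was 0.022 (SE 0.26).

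**Figure D5:**
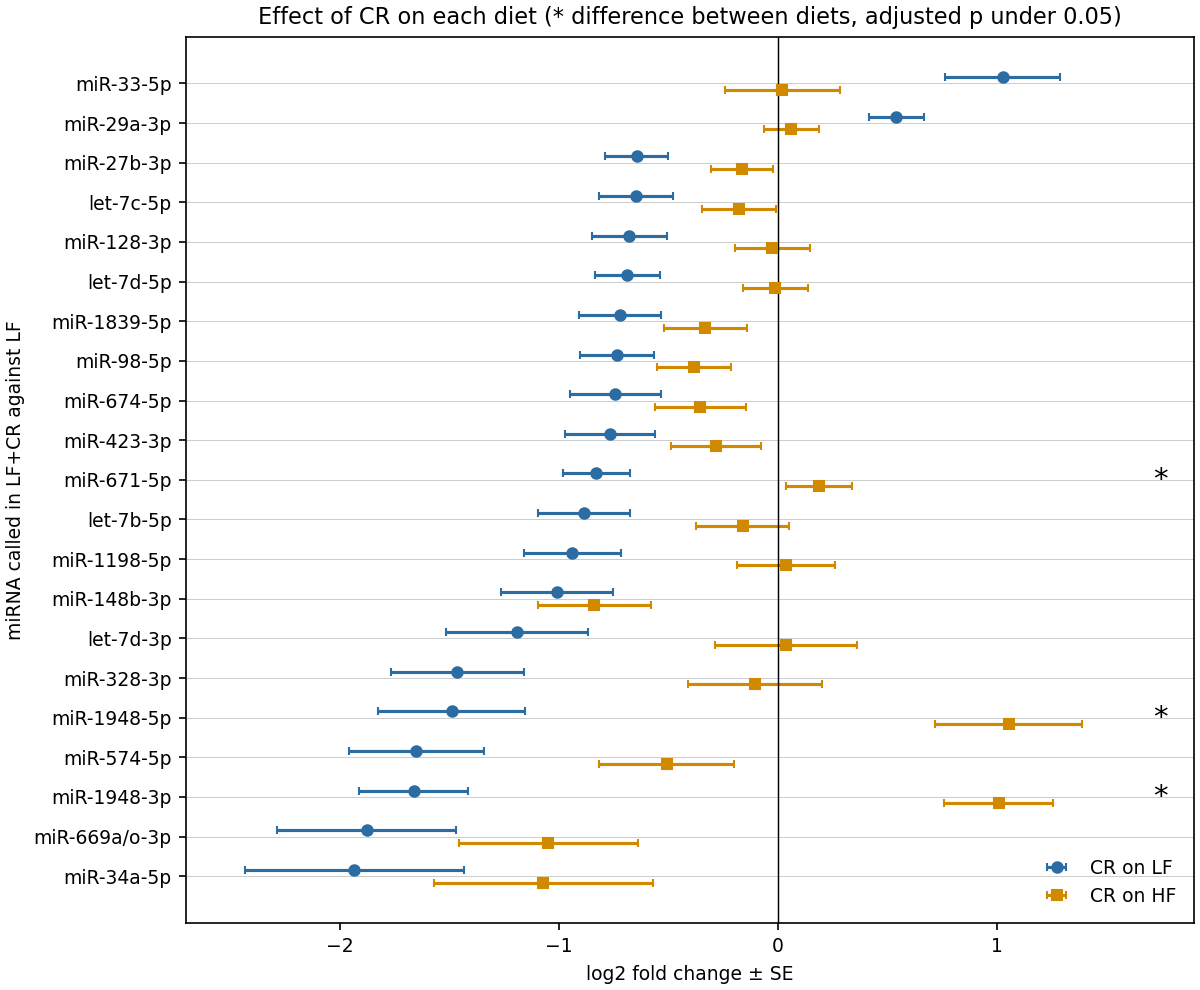
Log2 fold change ± SE with CR on the LF diet (blue circles) and on the HF diet (orange squares) for the miRNAs called on LF, with miR-669a-3p and miR-669o-3p drawn once; asterisks mark a difference between diets with an adjusted p under 0.05. The orange squares lie nearer to 0 than the blue circles in each row, and for both arms of miR-1948 they lie on the opposite side of 0.

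LF+CR was also set against LF+Ex, the exercised group on the same diet. Of 351 miRNAs 9 passed (2.56%), 8 lower (2.28%) and 1 higher (0.285%) in LF+CR. After rescaling 8 passed, 4 higher and 4 lower, and the fit of only the compared groups gave 6, 3 higher and 3 lower. The lower ones included 6 of the 20 falls against LF: miR-1948-3p, at 71.2, 98.3 and 102 RPM in LF+Ex (-2.34, SE 0.25, adjusted p = 3.09e-05), miR-1948-5p, at 18.9, 19.2 and 20.9 RPM in LF+Ex (-2.35, adjusted p = 0.000619), and miR-671-5p, miR-27b-3p, miR-148b-3p and miR-574-5p. For both arms of miR-1948 each LF+Ex library was above each LF+CR library, and both calls were kept in 6 of 6 omissions. miR-671-5p, at 91.7, 95.1 and 105 RPM in LF+Ex, was at -0.75 (adjusted p = 0.0216), miR-27b-3p at -0.64 (0.0271), miR-148b-3p at -1.14 (0.0271) and miR-574-5p at -1.28 (0.0405). Each of these 4 lost its call without LF+CR 1, LF+CR 2, LF+Ex 1 or LF+Ex 3, with adjusted p of 0.0681 to 0.231; miR-574-5p lost it without LF+Ex 2 as well. After rescaling miR-671-5p and miR-27b-3p were not called (adjusted p = 0.113 and 0.178).

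miR-1839-3p and miR-1968-5p were lower against LF+Ex but had not passed against LF, at -1.10 and -0.88 (adjusted p = 0.0408 and 0.0426); the first was lost in 4 of 6 omissions and the second in 6 of 6, and neither passed after rescaling (adjusted p = 0.0512 and 0.167). The higher miRNA was miR-143-3p, enriched in smooth muscle and stellate cells, at 11274, 7837 and 9614 RPM in LF+CR and 4454, 4484 and 6470.2 RPM in LF+Ex (0.91, SE 0.20, adjusted p = 0.0271). Its call was lost without LF+CR 1, LF+Ex 2 or LF+Ex 3 (adjusted p 0.108 to 0.156). Whether it stands for its cell types was not tested. Against LF, 8 of the 9 tested stellate and mural miRNAs lay below 0 (all miRNAs: 75.2%), 4 after rescaling. In that comparison miR-143-3p was not called (0.33, limma adjusted p = 0.302), but passed after rescaling (0.67, adjusted p = 0.0438). Against LF+Ex, miR-214-3p of that list was at -1.09 without passing (limma adjusted p = 0.271), and the remaining members are not described here. The 20 falls against LF all lay below LF+Ex too (all miRNAs: 218 of 351, 62.1%), and LF+CR had the lowest mean of the 6 groups for each of them. These 2 comparisons share the LF+CR libraries, so their directions are not independent. The 20 were also chosen for low values in LF+CR. LF+Ex minus LF was above 0 for miR-1948-3p, miR-1948-5p and miR-148b-3p (0.68, 0.86 and 0.13) and below 0 for the other falls. For let-7c-5p it was -0.54, against -0.11 for LF+CR minus LF+Ex. It was also the larger for miR-1198-5p (-0.64 against -0.29), let-7b-5p (-0.55 against -0.34) and miR-128-3p (-0.50 against -0.17). For let-7d-3p both were near equal (-0.597 and -0.595). For the other falls LF+CR minus LF+Ex was the larger in size. LF+Ex against LF itself gave 0 calls of 351 in limma (0%).

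Among the 407 miRNAs not tested, 78 were listed at 0 in the 6 libraries and the highest single value was 40.2 RPM (miR-217-5p). 15 were listed in 3 of 3 LF libraries and at 0 in 3 of 3 LF+CR libraries, and none the other way round. The smallest value listed in any library was 2 reads, so a listed 0 can stand for 0 reads or 1 read, and depth differed (5.12 to 7.70 M in LF+CR and 6.98 to 8.88 M in LF).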

How the data were processed

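Small RNA libraries of mouse liver were sequenced, and the authors deposited RPM, a library's reads on a common scale, for 758 mature miRNAs in 18 libraries, per the file headers. The genome build was mm10, per the submitters' processing notes; aligner, counter and filters were not given in the sources used here. Each value was a whole multiple of 1 step per library (tolerance 0.001 reads), which gave the depth; the lowest listed value was 2 reads, so low counts are incomplete and no count test was run, other than limma's voom weights on the implied reads as an alternative added after seeing the data. Intervals are not given, and precision is limited by 3 libraries a group.

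Groups were taken from the sample titles. miRNAs with at least 5 RPM in at least 3 libraries were fitted with limma 3.58.1 (R 4.3.3) on log2(RPM + 1), all 18 libraries in 1 fit with an intensity trend, which pools the spread of 6 groups, and p-values were adjusted by Benjamini-Hochberg. Seed sums, arm ratios, the difference of CR between diets and LF+CR against LF+Ex were fitted likewise, and the functions were tested on simulated data. Mature sequences from RefSeq (GRCm38.p6) matched 288 of the 351 tested miRNAs. Alternatives were another pseudocount, other filters, size-factor rescaling, other fits and each library left out. Named were all called miRNAs, their other arms, seed relatives and neighbours, the most abundant, the largest RPM changes, the smallest p in the further tests, and list members. The members, lists and tests were chosen with earlier results of these data known.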

Additional observations from a re-analysis of the deposited data

Results flagged for a closer look

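The change with CR differed between the LF and the HF diet by the test of the difference itself (limma, Benjamini-Hochberg over 351 miRNAs) for 3 miRNAs. The LF effect minus the HF effect was -2.67 for miR-1948-3p (adjusted p = 0.000482), -2.54 for miR-1948-5p (adjusted p = 0.0124) and -1.02 for miR-671-5p (adjusted p = 0.0306), on the log2(RPM + 1) scale. For miR-1948-3p, 3 of 3 LF+CR libraries lay below LF and 3 of 3 HF+CR libraries above HF. The same order held for miR-1948-5p, but its highest HF library (12.6 RPM) and lowest HF+CR library (12.7 RPM) were nearly equal. After rescaling the difference between diets was called for miR-1948-3p alone.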

How the results depend on the processing

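None of the 22 miRNAs called between LF+CR and LF changed direction under any alternative run, but many lost the threshold. With only the compared groups in the fit, 0 miRNAs and 0 seeds were called by limma (92 and 61 at an unadjusted p under 0.05), 9 arm ratios, and 1 miRNA in the difference between diets. Leaving out 1 library at a time gave 5 to 40 called miRNAs, 0 to 28 seeds, 0 to 10 arm ratios, 1 to 9 differences between diets and 2 to 13 miRNAs against LF+Ex. No filter on low values gave 4 seeds, 0 arm ratios (39 at an unadjusted p under 0.05) and 3 miRNAs against LF+Ex; a filter of 50 RPM gave 2 arm ratios and 5 miRNAs against LF+Ex. A pseudocount of 5 RPM gave 4 arm ratios, and no intensity trend gave 0. Rescaling left 1 difference between diets. Voom weights in the fit of 18 libraries called 30 miRNAs and 25 seeds. Same-numbered LF and LF+CR libraries did not deviate together (r of 0.0168, 0.0156 and -0.0476), and LF+CR and LF+Ex did so in part (0.334, 0.158 and 0.0495), so the numbers were not taken as pairs; the replicate block gave 24 miRNAs, 17 seeds, 4 arm ratios, 2 differences between diets and 8 miRNAs against LF+Ex. Under the block miR-674-5p was not called (adjusted p = 0.0577), nor its seed (0.0504), miR-671-5p between diets (0.0573), or miR-1839-3p and miR-1968-5p against LF+Ex (0.0628 and 0.0597). Of the uncalled miRNAs named, these changed sign on rescaling: miR-21a-5p 0.18, let-7f-5p 0.094, miR-192-5p 0.22, let-7a-5p 0.026, let-7g-5p 0.026, miR-24-3p 0.065, miR-99a-5p 0.12, miR-99a-3p 0.24, miR-29b-1-5p 0.040, let-7f-2-3p 0.19, let-7e-5p 0.15, miR-29c-5p 0.0070, miR-33-3p 0.14 and miR-185-5p 0.14. With 1 library left out, the log2 fold change crossed 0 in miR-21a-5p (range -0.39 to 0.027), miR-194-5p (range -0.0063 to 0.13), miR-99a-3p (range -0.18 to 0.011), let-7f-2-3p (range -0.35 to 0.083), miR-33-3p (range -0.47 to 0.046), miR-455-5p (range -0.063 to 0.29) and miR-497-3p (range -0.12 to 0.57); it crossed without LF 1 in miR-21a-5p, miR-194-5p, let-7f-2-3p and miR-33-3p, without LF 2 in miR-497-3p, without LF 3 in miR-99a-3p and miR-33-3p, without LF+CR 1 in let-7f-2-3p and without LF+CR 3 in miR-455-5p. The cause of these changes was not tested. The edgeR and DESeq2 alternatives were not run because counts of 1 read are not listed; voom weights on the implied reads were chosen after seeing the data.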

Other observations

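Other miRNAs lay above the LF range in 3 of 3 LF+CR libraries without passing the test. The examples were chosen after their values were seen. miR-31-5p was at 944, 1178 and 1408 RPM in LF and at 1749, 1545 and 1931 RPM in LF+CR (log2 fold change 0.58, SE 0.24, adjusted p = 0.129). Its other arm miR-31-3p, which is scarce, was at 10.8, 11.5 and 14.4 RPM in LF and at 22.8, 17.5 and 24.7 RPM in LF+CR (0.77, adjusted p = 0.106). After rescaling both arms passed, at 0.91 and 1.09 (adjusted p = 0.028 for each). miR-30a-5p, an abundant hepatic miRNA, was at 23185, 23251 and 19339.9 RPM in LF and at 28147, 30903 and 24418 RPM in LF+CR (0.34, SE 0.13, adjusted p = 0.106), and miR-30e-5p at 0.32 (adjusted p = 0.153). The sum of miR-103-3p and miR-107-3p was at 17205, 17299 and 17156 RPM in LF and at 13038, 12315 and 12173 RPM in LF+CR. Before rescaling the LF libraries lay within a narrow range and all LF+CR libraries below it. The sum did not pass in the fit of 18 libraries (adjusted p = 0.0872), where its HF libraries ranged from 15058 to 25130.2 RPM. Size factors were 0.89 to 1.21 in LF and 0.81 to 0.88 in LF+CR. When the sums are divided by them, the LF libraries are no longer close together and the groups overlap. Neither the narrow range nor the gap therefore holds after rescaling.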
